A study of Mus musculus with 19 samples.

Results

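The effect of losing Trim71 while Lin28a was present was examined in mouse embryonic stem cells, in 8 of the 19 libraries of the study. The members were chosen by genotype label: 4 KO-WT libraries (Trim-/- with Lin28afl/fl) and 4 WT-WT libraries (Trimfl/fl with Lin28afl/fl), with the Trim71 state written first. KO-WT replicate 5 was left out, since for every gene it held the average of KO-WT replicates 1 to 4 (largest gap 1.5e-08). All cells were male, of C57BL/6 background, cultured in fetal calf serum plus LIF (leukaemia inhibitory factor), and enriched on magnetic beads for the stem cell antigen SSEA-1. In the floxed cells Trim71 was deleted with 500 nM 4-hydroxytamoxifen over 2 days, with at least 7 further days of culture, per the labels. Whether the WT-WT cells received a vehicle is not given in the sources used here. The WT-WT libraries were from day 1 (clone 1), day 3 (clone E3), day 4 (clone E3) and day 5 (clone 1), numbered as replicates 1 to 4. The KO-WT libraries were from day 2 (E3), day 3 (E3), day 4 (E3) and day 5 (clone 1), so that 3 days gave a same-day pair. Lin28a-null cells (WT-KO and KO-KO, with 5 libraries each) were used for comparison, and came from other clones (1-4 and C1). The labels do not say that the libraries came from separate cultures, so p-values measure the spread between these samples.

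TRIM71, also called LIN41, is an RNA-binding ubiquitin ligase of early embryos and stem cells that represses mRNAs it binds. LIN28A binds let-7 precursors and blocks their maturation. Mature let-7 represses mRNAs that pair with its seed, and the mRNAs of both Trim71 and Lin28a are themselves classical let-7 targets, so the 3 factors form a loop.

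The let-7 family members share bases 2 to 8, shown in capitals, because the sites below pair with that stretch. The mature sequences are those of RefSeq for GRCm38.
mmu-let-7a-5p: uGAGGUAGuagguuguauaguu
mmu-let-7e-5p: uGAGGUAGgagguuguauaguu
mmu-let-7g-5p: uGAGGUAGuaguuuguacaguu
mmu-miR-98-5p: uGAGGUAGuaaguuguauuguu
Perfect 8-base matches (CTACCTCA, in capitals) in the last exon of the deleted gene itself, Trim71, and of Nr6a1 and Prtg, let-7 targets that were lower after its loss, are given with 10 bases on either side, in transcript orientation. Positions are counted from the first base of the 3′UTR in GENCODE M21.
Trim71, 3′UTR base 166, chr9:114512472-114512479, minus strand: tgcctaagtcCTACCTCAgcttaaattt
Trim71, 3′UTR base 262, chr9:114512376-114512383, minus strand: taatttctatCTACCTCAactctttgca
Nr6a1, 3′UTR base 371, chr2:38727449-38727456, minus strand: acaaagacaaCTACCTCAatggaaacag
Nr6a1, 3′UTR base 1228, chr2:38726592-38726599, minus strand: gggcattaaaCTACCTCAtgtttctaag
Prtg, 3′UTR base 271, chr9:72912573-72912580, plus strand: tgctgaatagCTACCTCAgtttgctgtg
Trim71 held 4 such matches and Nr6a1 held 3. The build used for the deposited values is not given in the sources used here, so these coordinates rest on a match of gene symbols to GRCm38.

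The deposited values are normalised expression on a log2 scale. They carried no remaining difference between days, and the read depth behind them is unknown. The 10 embryonic stem cell markers were all expressed, with means from 9.28 to 13.71. Among markers of other cells, Cdx2, Elf5, Sox17, T, Mixl1, Mesp1, Col3a1, Pdgfrb, Postn, Lum and Dcn were not among the genes that passed the expression filter. Summed linear levels of the stem cell markers did not overlap, at 41057 to 43035 in WT-WT and 43696 to 46699 in KO-WT. Nor did those of 5 neural markers, at 483.2 to 613.1 and 427.2 to 479.5. Of all tested genes taken singly, 28.2% did not overlap either. By limma (adjusted p under 0.05), 2 of the 10 stem cell markers were called higher, and none of the 5 neural markers was called. By the same test 4.74% of all tested genes were called higher and 6.43% lower. Summed levels of the 4 fibroblast markers in the data (of 8 listed) ran from 100.5 to 125.4 in WT-WT and from 94.2 to 105.4 in KO-WT. The 6 primitive endoderm markers ran from 259.2 to 357.7 and from 313.2 to 471.2, so that both of these sets overlapped. The part of other cell types in the results was not tested, and in such bulk libraries fewer cells of a type and less RNA per cell cannot be told apart.

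The libraries differed in how their values depended on the base composition of the transcript. Each library was compared with the mean of the 4 WT-WT libraries over 14805 genes with a known transcript GC content. The rank correlation of this deviation with GC content was 0.286, 0.194, -0.386 and 0.107 in WT-WT replicates 1 to 4, and 0.387, 0.445, 0.601 and 0.344 in the KO-WT replicates. Every KO-WT library lay above every WT-WT library, and WT-WT replicate 3 was the only library with a negative value. The mean was 0.444 ± 0.112 (SD, n = 4) in KO-WT against 0.0502 ± 0.300 in WT-WT (exact two-sided permutation test p = 0.0286, the smallest that 4 against 4 can give). Leaving out any 1 KO-WT library gave an exact permutation p of 0.0571, and leaving out any 1 WT-WT library gave 0.0286. The reference came from the WT-WT libraries and was not recomputed in the permutations. The genotypes were thus not exchangeable, and these p-values cannot decide whether they differ. Same-day pairs need no such reference. In them the rank correlation of KO-WT minus WT-WT with GC content was 0.33, 0.629 and 0.25 on days 3, 4 and 5. GC-poor transcripts were lower and GC-rich ones higher in KO-WT, as the plot by GC content shows. The part of this trend in the gene results below was not tested, and values after its removal are given for gene lists and for named genes that it moved by more than 1.5 times or whose call it ended.

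**Figure D1:**
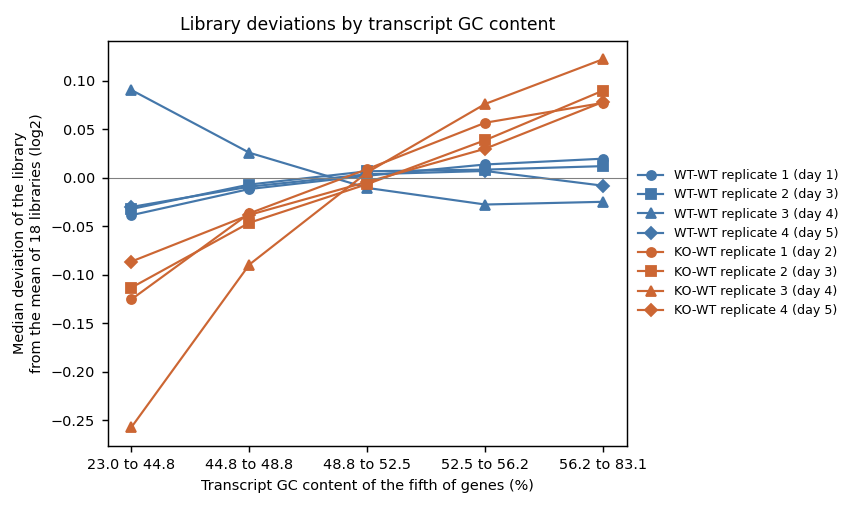
Median deviation of each of the 8 libraries from the mean of the 4 WT-WT libraries (log2, vertical axis). Genes are in 5 classes ordered by transcript GC content in % (horizontal axis). The axis label names 18 libraries, but only the WT-WT libraries served as the reference. The KO-WT libraries (orange) run from -0.257 to -0.0864 in the class with the lowest GC content and from 0.0773 to 0.122 in the highest. WT-WT replicate 3 runs the other way.

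Between KO-WT and WT-WT, 1674 of 14988 tested genes (11.2%) passed a limma adjusted p of 0.05. Of these, 711 were higher in KO-WT (4.74%) and 963 lower (6.43%), with a median absolute log2 difference of 0.31. Only 5 of them changed by 2-fold or more: Trim71, Ccr4, Foxj1, Gm364 and Ntn1. Of the called genes, 1644 did not overlap between the genotypes, beside 28.2% of all tested genes. Among the 2961 genes with the lowest GC content (23.0 to 44.8%), 11 were called higher and 505 lower. Among the 2961 with the highest (56.2 to 83.1%), 359 were called higher and 25 lower. With the GC and length trend removed from each library, 1087 genes were called (7.34%), 458 higher (3.09%) and 629 lower (4.25%), of which 779 were called before removal as well, all in the same direction. Centring each library after that removal gave 595 higher and 532 lower. Fitting the 8 libraries alone left 16 higher and 14 lower, and clones E3 and C1 alone left 5 and 5. Without WT-WT replicate 2, 3 or 4 the number called was 999, 602 and 528, and without KO-WT replicate 2 or 3 it was 959 and 613.

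Trim71 itself was lower in every KO-WT library than in any WT-WT library. Its level was 10.33, 10.26, 10.04 and 10.19 in WT-WT replicates 1 to 4, and 8.77, 8.96, 9.06 and 8.79 in the KO-WT replicates. The genotypes did not overlap, and the transcript remained well above the expression filter in KO-WT. The difference was -1.31 ± 0.12 (SE) on the log2 scale, with a limma adjusted p of 2.39e-05. Which exons the deletion removes is not given in the sources used here. Lin28a, intact in both genotypes, was 10.20, 10.26, 9.90 and 10.16 in WT-WT against 9.80, 9.83, 9.996 and 9.74 in KO-WT. KO-WT replicate 3 lay above WT-WT replicate 3, so the groups overlapped. The fitted difference was -0.28 ± 0.08 (adjusted p 0.036). That call was lost without any 1 of WT-WT replicates 1, 2 and 4 or KO-WT replicates 1, 2 and 4 (adjusted p 0.0689, 0.122, 0.102, 0.0644, 0.0806 and 0.107).

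**Figure D2:**
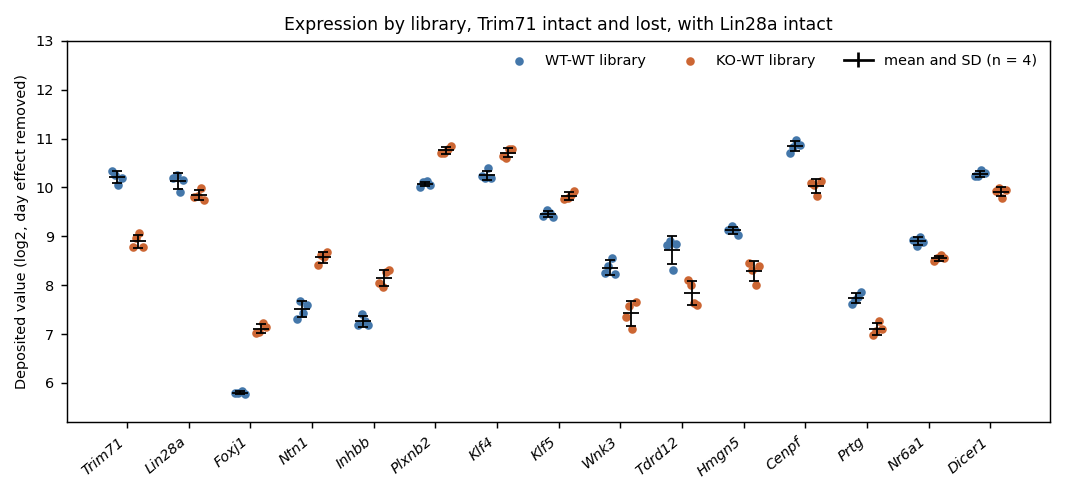
Deposited log2 values (vertical axis) of 15 genes in the 4 WT-WT (blue) and 4 KO-WT (orange) libraries, with the mean and SD in black. The groups are apart in every gene shown except Lin28a; Foxj1 rises from 5.80 to 7.11 and Trim71 falls from 10.21 to 8.89.

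Around the deleted gene, 1 of 9 tested neighbours changed. Trim71 lies at chr9:114507133-114564369 on the minus strand of GRCm38, and Ccr4, a chemokine receptor gene on the same strand, begins 2217 bases beyond its 3′ end. Ccr4 was 5.95, 6.66, 6.53 and 5.79 in WT-WT and 7.56, 7.39, 7.40 and 8.41 in KO-WT. All KO-WT libraries were higher, with KO-WT replicate 4 well above the rest. The log2 difference was 1.46 ± 0.23 (adjusted p 0.00189) and 1.49 after removal of the trend. Without Lin28a it was 2.51, and the interaction did not pass (adjusted p 0.213). The other neighbours, from Crtap to Cmtm7, differed by -0.04 to 0.19 and were not called. With 1 of 9 called, the share among the neighbours was close to the 11.2% of all genes. Only the fits of the 8 libraries alone and of clones E3 and C1 alone ended the Ccr4 call, beside the 8 libraries alone with the trend removed.

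The genes that rose most encode a ciliary regulator, guidance cues, transporters and signalling proteins. The 15 largest rises among called genes without overlap, and averaging 50 or more normalised units, ran from 0.63 to 1.46 on the log2 scale. All 15 remained called with the trend removed. Foxj1, the master transcription factor of motile cilia, had values of 5.80, 5.79, 5.84 and 5.77 in WT-WT and 7.02, 7.05, 7.22 and 7.14 in KO-WT. These groups were more than 1 log2 unit apart in every library, with a difference of 1.31 ± 0.11 (adjusted p 2.39e-05). Among 15 tested genes of the motile cilium, Foxj1 was the only one called (6.7%, beside 11.2% of all tested genes). The list's median was -0.07.

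Ntn1, the guidance cue netrin 1, rose from 7.31, 7.68, 7.44 and 7.60 to 8.42, 8.62, 8.57 and 8.67. The lowest KO-WT library stood well above the highest WT-WT library (difference 1.06 ± 0.11, adjusted p 4.75e-05). Plxnb2, a semaphorin receptor whose mRNA TRIM71 is known to bind, was 10.01, 10.10, 10.12 and 10.04 in WT-WT and 10.70, 10.71, 10.78 and 10.84 in KO-WT. Its libraries were tightly grouped, with a difference of 0.69 ± 0.08 (adjusted p 0.00013). Inhbb, the βB subunit of activin, was 7.18, 7.41, 7.28 and 7.18 in WT-WT and 8.04, 7.97, 8.27 and 8.31 in KO-WT. It rose by 0.88 ± 0.09 (adjusted p 8.32e-05). Other rises without overlap were those of Dglucy, a mitochondrial D-glutamate cyclase (0.84), Emp1, an epithelial membrane protein (0.83), and Slc52a3, a riboflavin transporter (0.71). Tmem151b (0.68), the small GTPase gene Mras (0.63) and the organic anion transporter gene Slco4a1 (0.63) moved likewise.

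Id1, an inhibitor of helix-loop-helix factors that responds to BMP signals, was 7.33, 7.32, 7.27 and 6.94 in WT-WT and 7.51, 7.95, 8.43 and 8.17 in KO-WT. KO-WT replicate 1 lay close to the WT-WT libraries, and the difference was 0.80 ± 0.20 (adjusted p 0.0224). Without WT-WT replicate 3 or 4, or without KO-WT replicate 3 or 4, the adjusted p of Id1 was 0.053, 0.0875, 0.0945 and 0.0576. Jund, an AP-1 subunit, rose by 0.64 ± 0.14 (adjusted p 0.0142), and was not called without KO-WT replicate 3 or WT-WT replicate 4 (0.0612 and 0.0645). Gm364, at 4.94, 4.88, 4.98 and 4.96 in WT-WT and 6.12, 6.02, 6.38 and 6.14 in KO-WT, was below the level set for the largest changes. Its difference of 1.22 ± 0.12 (adjusted p 2.39e-05) was nevertheless among the 5 of 2-fold or more, and its libraries did not overlap.

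The genes that fell most, after Trim71, were zinc finger genes of chromosome 4, with a kinase, a piRNA factor, a chromatin protein and a kinetochore protein. Excluding Trim71, the 14 largest falls ran from -0.98 to -0.75, and all remained called with the trend removed. Wnk3, a kinase that regulates ion cotransporters, was 8.25, 8.39, 8.56 and 8.22 in WT-WT and 7.34, 7.58, 7.10 and 7.66 in KO-WT. The WT-WT and KO-WT libraries of Wnk3 were apart by more than their spread (-0.93 ± 0.14, adjusted p 0.000836). Tdrd12, a Tudor protein of the piRNA pathway, was 8.83, 8.91, 8.30 and 8.85 against 8.11, 7.99, 7.65 and 7.60. WT-WT replicate 3 was the low library of its group but still above KO-WT (-0.89 ± 0.17, adjusted p 0.00604). Hmgn5, a nucleosome-binding protein, was 9.13, 9.21, 9.13 and 9.02 against 8.46, 8.31, 8.01 and 8.38, a difference of -0.83 ± 0.11 (adjusted p 0.000448). Eprn, a long noncoding RNA of embryonic stem cells, fell by 0.80 on the log2 scale, and Sema3e, a secreted semaphorin, by 0.75. Cenpf, a large kinetochore protein, was 10.71, 10.84, 10.97 and 10.87 against 10.09, 10.06, 9.82 and 10.14. No WT-WT library of Cenpf overlapped KO-WT (-0.82 ± 0.17, adjusted p 0.00944), and the difference was -0.62 (adjusted p 0.0138) with the trend removed.

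**Figure D3:**
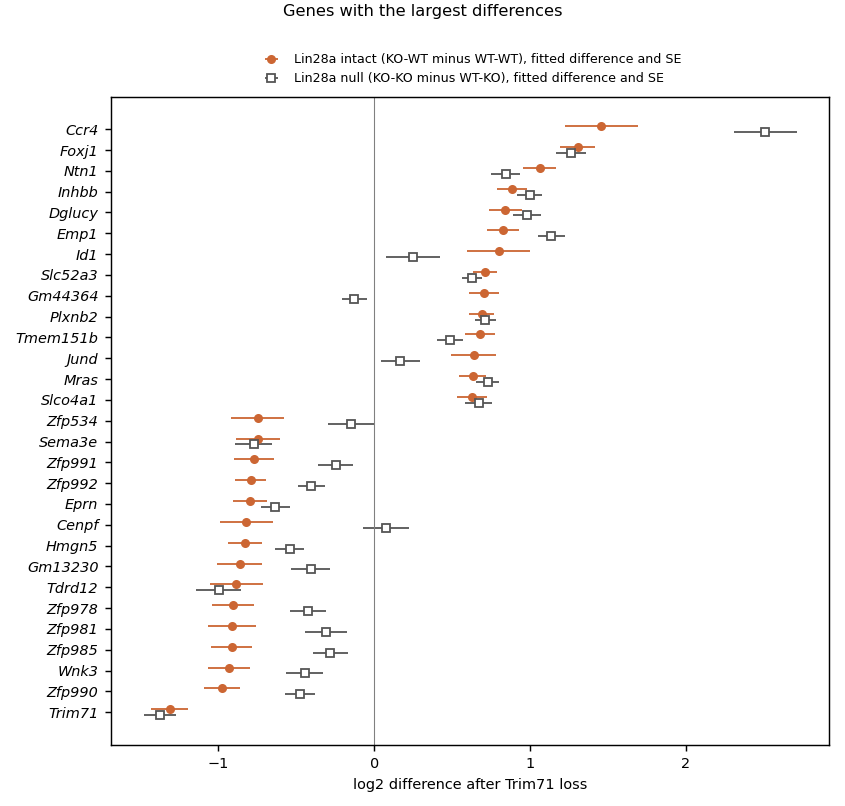
Log2 difference after Trim71 loss with its SE for 14 of the 15 genes that rose most and the 15 that fell most, with Lin28a intact (orange circles) and in Lin28a-null cells (open squares). Foxj1, Plxnb2, Tdrd12 and Trim71 lie at nearly the same place in both, while Cenpf and Gm44364 are near 0 without Lin28a.

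Of genes named Zfp with a number, most of which encode KRAB or other C2H2 zinc finger proteins, 56 of 329 were called lower and 3 higher. These compare with 6.43% and 4.74% of all tested genes. The median of the 329 was -0.13, beside -0.00 for all tested genes, and their median transcript GC content was 44.5%, beside 50.6%. With the trend removed 28 were called lower and 3 higher, with a median of -0.07. Without 1 library in turn between 18 (WT-WT replicate 3) and 45 were called lower, with 19, 23, 34 and 36 without KO-WT replicate 3, WT-WT replicate 4, WT-WT replicate 2 and KO-WT replicate 2. A block on chromosome 4 stood out after the values were seen, so it is described and not tested. Its 18 tested genes lie within chr4:145510759-147848366, and all 18 had negative differences. Of them 14 were called lower, with a median of -0.62, against 42 of the other 311, whose median was -0.12. With the trend removed 12 of the 18 were called lower, with a median of -0.40. The largest of these falls was that of Zfp990, at 7.23, 7.23, 7.28 and 7.34 in WT-WT and 6.28, 6.40, 6.23 and 6.26 in KO-WT. Its groups were far apart in all 3 same-day pairs (-0.98 ± 0.11, adjusted p 0.00013; -0.76 with the trend removed). Zfp985, Zfp981 and Zfp978 followed at -0.92, -0.91 and -0.91, and Zfp992 and Zfp991 at -0.79 and -0.77. Zfp534 fell by 0.75 (adjusted p 0.0142), and was no longer called when WT-WT replicate 3 or KO-WT replicate 3 was left out (0.0569 and 0.0535). The pseudogene Gm13230, at chr4:145446740-145450888 beside the block, fell by 0.86. The genes of this block are near copies of each other and their transcripts are poor in GC (median 36.1%), so how reads were shared between them is uncertain. In Lin28a-null cells 5 of the 18 were called lower, with a median of -0.15. Zfp985 differed by -0.28 there, and its interaction had an adjusted p of 0.195.

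**Figure D4:**
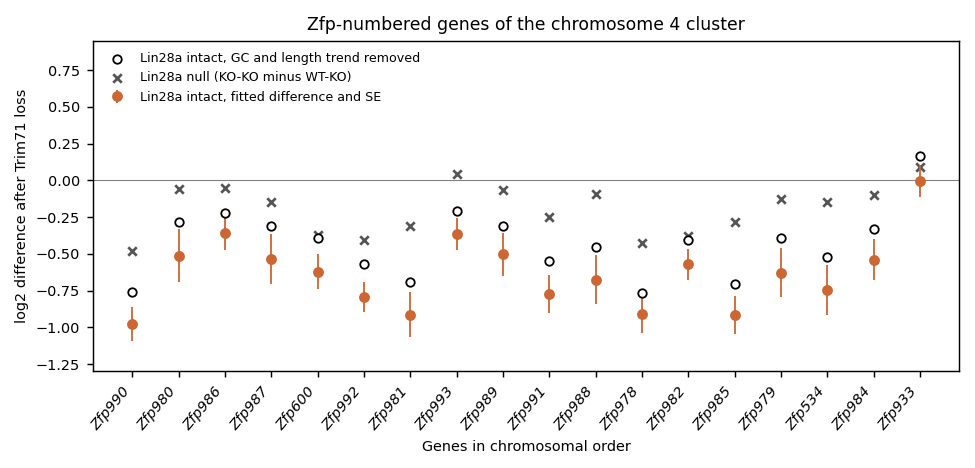
Log2 difference after Trim71 loss for the 18 tested Zfp genes of the chromosome 4 block in chromosomal order, with SE for the deposited values (orange), after removal of the GC and length trend (open circles) and in Lin28a-null cells (crosses). All but Zfp933, at -0.01, lie clearly below 0 with Lin28a intact.

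Members of the let-7 and microRNA pathway moved in both directions. Of 55 let-7 targets listed from general knowledge, 3 were called higher and 8 lower, and their median was -0.08 (4.74% of all tested genes were called higher and 6.43% lower). The 8 include Trim71, whose fall the deletion fixed. With the trend removed the count was 3 and 6, and the median was -0.03. Without WT-WT replicate 3, WT-WT replicate 4 or KO-WT replicate 3 only 4 were called lower. Prtg, an immunoglobulin-domain receptor with the site shown above, was 7.62, 7.70, 7.76 and 7.86 in WT-WT and 6.98, 7.07, 7.27 and 7.10 in KO-WT. It fell in every same-day pair (-0.63 ± 0.11, adjusted p 0.00307; -0.52 with the trend removed). Nr6a1, an orphan nuclear receptor with 3 sites, was 8.92, 8.80, 8.99 and 8.88 against 8.49, 8.55, 8.62 and 8.55, a difference of -0.35 ± 0.07 (adjusted p 0.00656). Dicer1, which cuts microRNA precursors and is also a let-7 target, was 10.23, 10.23, 10.36 and 10.30 against 9.93, 9.99, 9.78 and 9.94. No library of either gene overlapped, and Dicer1 differed by -0.37 ± 0.06 (adjusted p 0.00282). Rdx, a membrane-cytoskeleton linker, fell by 0.38 (adjusted p 0.0186). Its difference was -0.32, -0.39 and -0.27 without WT-WT replicate 3, WT-WT replicate 4 or KO-WT replicate 3, and it was not called in these fits (0.0763, 0.0529 and 0.0761). Nme4, a mitochondrial nucleoside diphosphate kinase, rose by 0.38 (adjusted p 0.00282). Hmga2, a well-known let-7 target, was 7.39, 7.42, 7.52 and 7.23 in WT-WT and 7.44, 7.45, 7.29 and 7.62 in KO-WT, with overlapping groups and a difference of 0.06 (adjusted p 0.668).

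Of 16 genes of microRNA processing, 4 were called lower and 1 higher, and 3 and 1 with the trend removed, beside 6.43% and 4.74% of all tested genes (4.25% and 3.09% with the trend removed). Beside Dicer1 and Lin28a, the lower ones were Ssb, the RNA-binding La protein (-0.40), and Dgcr8, the partner of Drosha (-0.16). Zfp36l1, which binds AU-rich elements, rose by 0.34. The calls of Ssb, Dgcr8 and Zfp36l1 were each lost without WT-WT replicate 3 (adjusted p 0.118, 0.0824 and 0.0715) and without KO-WT replicate 3 (0.144, 0.101 and 0.0695). They were lost without KO-WT replicate 2 as well (0.0623, 0.0755 and 0.0591). Those of Ssb and Dgcr8 were further lost without WT-WT replicate 2 (0.0545 and 0.0831) or 4 (0.0752 and 0.0611), and those of Ssb and Zfp36l1 without KO-WT replicate 4 (0.051 and 0.0554). With the trend removed Dgcr8 was not called (-0.13, adjusted p 0.0722), and Ssb differed by -0.22 (adjusted p 0.0482). Of 16 genes of microRNA silencing, 1 was called lower and none higher by limma.

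As a class, genes with a let-7 seed match differed little from genes without one. Of 12525 tested genes with an annotated 3′UTR, 431 (3.44%) held the 8-base match CTACCTCA. Their median difference was -0.02, beside -0.00 for genes with no let-7 match, and 7.42% were called lower and 3.71% higher, beside 6.61% and 5.57% of genes with no match. With the trend removed their median was 0.02 and that of genes without a match -0.01. Matches to 4 other seeds were searched the same way on the transcript strand: AGCACTTA for miR-294, GCACTTTA for miR-17, TGCTGCTA for miR-16 and GTGCAATA for miR-92. Their medians were -0.06, -0.04, -0.03 and -0.05, and 0.0028, 0.0027, 0.0105 and -0.0091 with the trend removed. The let-7 class was thus closest to 0 of the 5 before removal and farthest from it after. These classes share a lower GC content (medians of 46.8 to 49.4%) than genes at large, and the miR-17 match and the miR-294 match overlap in sequence. Of 24 genes with 2 or more let-7 matches, 5 were called lower (Trim71, Nr6a1, Lin28a, Zc3hav1l and Ddx19b) and 1 higher (Fignl2), beside 6.43% and 4.74% of all tested genes. The 5 include Trim71, whose fall the deletion fixed, and Lin28a, whose call was easily lost, as given above. Removing the trend left 3 called lower (Trim71, Nr6a1 and Lin28a) and none higher by limma, as Zc3hav1l, Ddx19b and Fignl2 lost their calls (adjusted p 0.282, 0.198 and 0.148). The names Zc3hav1l, Ddx19b and Fignl2 were chosen after their values were seen.

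Among regulators of the pluripotent state, the naive genes Klf4 and Klf5 rose while Pou5f1, Nanog, Sox2 and Esrrb did not pass the test. Of 18 naive-state genes 7 were called higher and 2 lower, where 4.74% of all genes were called higher. Between 3 and 6 were called higher without 1 library in turn, with 3 without WT-WT replicate 4 and 4 without KO-WT replicate 2. The median was 0.11 both before and after removal of the trend, which left 5 higher and 2 lower. Klf4 was 10.23, 10.18, 10.39 and 10.19 in WT-WT and 10.65, 10.61, 10.79 and 10.78 in KO-WT. Its groups did not overlap (0.46 ± 0.07, adjusted p 0.00102; 0.39 with the trend removed). Klf5, a related factor, was 9.42, 9.54, 9.47 and 9.40 against 9.76, 9.78, 9.85 and 9.92, a difference of 0.37 ± 0.05 (adjusted p 0.000647). Gbx2, a homeobox gene downstream of LIF, rose by 0.59 ± 0.13 (adjusted p 0.012) and was not called without KO-WT replicate 3 or WT-WT replicate 4 (0.0508 and 0.0563). Socs3, the feedback inhibitor of STAT3, rose by 0.38 (adjusted p 0.0189). Without KO-WT replicate 2 or WT-WT replicate 3 its difference was 0.31 in both fits and it was not called (0.0668 and 0.0786), nor was it with the trend removed (0.27, adjusted p 0.0741).

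The adhesion receptor gene Pecam1 fell by 0.33 ± 0.05 (adjusted p 0.00265). Tcl1, a coactivator of AKT, fell by 0.36 (adjusted p 0.0209). Without any 1 of WT-WT replicates 2 and 4 or KO-WT replicates 2, 3 and 4 its difference was -0.35 to -0.31, and it was not called (0.0508, 0.0732, 0.0539, 0.0782 and 0.0591). Of 16 core pluripotency genes, 2 were called higher and 2 lower, beside 4.74% and 6.43% of all tested genes. Without WT-WT replicate 4 or KO-WT replicate 4 none was called. Pou5f1 was 12.68, 12.73, 12.55 and 12.64 in WT-WT and 12.81, 12.78, 12.79 and 12.76 in KO-WT (0.13, adjusted p 0.121). Nanog was 12.30, 12.16, 12.25 and 12.34 against 12.32, 12.18, 12.31 and 12.12 (-0.03, adjusted p 0.826). Sox2 differed by 0.13 (adjusted p 0.148) and Esrrb by 0.07 (adjusted p 0.368), and of these 4 genes only Pou5f1 did not overlap. Zic5, of the formative and primed list, fell by 0.56 ± 0.09 (adjusted p 0.00266).

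Of 20 genes of ERK feedback and the immediate early response 6 were called higher and none lower by limma, with a median of 0.19, where 4.74% of all tested genes were called higher. The median was 0.14 and 5 were called higher with the trend removed, and none was called in the 8 libraries alone. Over all genes, that smaller fit had 3231 at an unadjusted p under 0.05. Without WT-WT replicate 3 or 4 the number called was 3 and 2, and without KO-WT replicate 3 or 4 it was 2 and 4. Dusp1, a phosphatase of MAP kinases, was 8.61, 8.61, 8.70 and 8.76 in WT-WT and 9.08, 9.07, 8.93 and 8.99 in KO-WT. It rose without overlap (0.35 ± 0.06, adjusted p 0.00265). Etv4, a transcription factor induced by ERK, was 10.40, 10.49, 10.46 and 10.30 against 10.60, 10.74, 10.88 and 10.90 (0.37 ± 0.07, adjusted p 0.00723). Spry4, Jun, Junb and Ier2 rose by 0.44, 0.44, 0.43 and 0.28. Each of these 4 calls was lost without WT-WT replicate 3, WT-WT replicate 4 or KO-WT replicate 3 (adjusted p from 0.0582 to 0.124). Spry4 and Jun also lost theirs without KO-WT replicate 4 (0.0797 and 0.0616), Junb and Ier2 without KO-WT replicate 2 (0.0902 and 0.0593), and Spry4 without WT-WT replicate 1 (0.0528). Junb and Ier2 were not called with the trend removed (0.30 and 0.14, adjusted p 0.111 and 0.171). Egr1 differed by 0.18 (adjusted p 0.429), with overlapping groups.

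Of 21 targets of p53 7 were called higher and none lower by limma, beside 4.74% and 6.43% of all tested genes, with a median of 0.09 before and 0.12 after removal of the trend, which left 4. Without WT-WT replicate 3 or 4 the number was 3, and without KO-WT replicate 2 or 3 it was 4 and 2. Btg2, an antiproliferative factor that binds the CCR4-NOT deadenylase, was 9.25, 9.26, 9.39 and 9.35 in WT-WT and 9.81, 9.70, 9.90 and 9.84 in KO-WT. The groups were apart (0.50 ± 0.09, adjusted p 0.0042), and Btg2 was also called in the 8 libraries alone. Cdkn1a, which encodes the cell cycle inhibitor p21 and is a known TRIM71 target, was 8.94, 9.01, 9.09 and 8.97 against 9.35, 9.24, 9.53 and 9.50. It rose by 0.40 ± 0.09 (adjusted p 0.0123), and without KO-WT replicate 3 its adjusted p was 0.053. Perp, an effector of p53-dependent death, rose by 0.38 ± 0.07 (adjusted p 0.00549). Of the 7 tested mRNAs listed as bound by TRIM71, Cdkn1a and Plxnb2 were called higher and none lower by limma. Epha2, an ephrin receptor, rose from 10.10, 10.24, 10.16 and 10.03 to 10.50, 10.64, 10.86 and 10.85 (0.58 ± 0.10, adjusted p 0.0029). Bmp4 (0.36 ± 0.08, adjusted p 0.00965; 0.0513 without WT-WT replicate 4) and Smad7 (0.26 ± 0.05, adjusted p 0.00656) were higher as well. No gene of the insulin and PI3K list of 24 was called by limma.

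**Figure D5:**
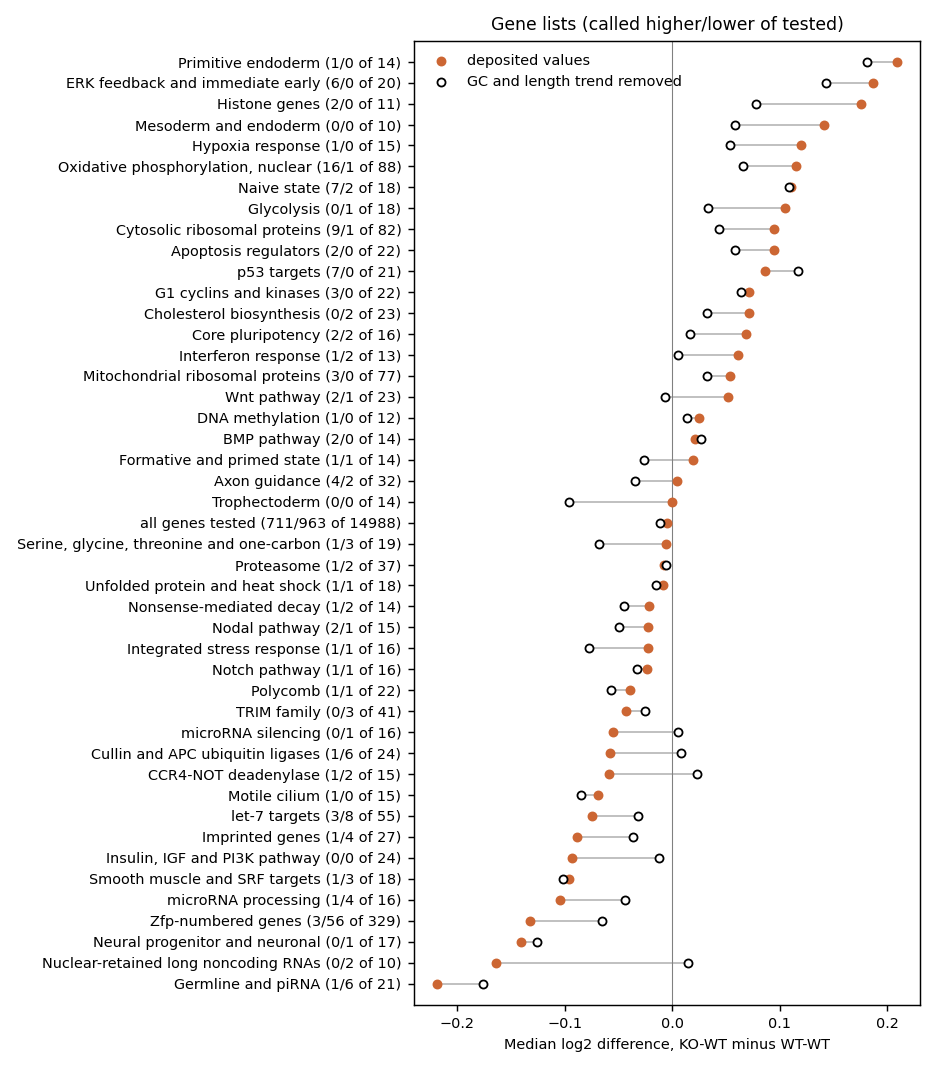
Median log2 difference between KO-WT and WT-WT (horizontal axis) of each list with at least 10 tested genes, from the deposited values (orange) and after removal of the GC and length trend (open circles), with the number called higher and lower of those tested. The germline list lies lowest at -0.22 and the Zfp genes at -0.13; the naive and ERK lists lie at 0.11 and 0.19.

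Of 21 tested genes of the germline and piRNA list 6 were called lower and 1 higher (6.43% and 4.74% of all tested genes), with a median of -0.22, and 4 lower and none higher by limma with the trend removed. Without WT-WT replicate 2, 3 or 4 the lower calls numbered 3, without KO-WT replicate 1 or 2 they numbered 4, and without KO-WT replicate 3 they numbered 2. Beside Tdrd12, the largest falls were those of Tex15, a meiotic and piRNA factor (-0.62), Stk31 (-0.47) and Dazl, a translational regulator of germ cells (-0.45). Tex15 and Dazl were not called with the trend removed (-0.35 and -0.25, adjusted p 0.0719 and 0.0835), while Stk31 was (-0.32, adjusted p 0.0342). Without WT-WT replicate 3 the calls of Tex15 and Dazl were lost (0.125 and 0.0903), as they were without KO-WT replicate 3 (0.113 and 0.0838). Tex15 was not called without KO-WT replicate 1 or 2 (0.0579 and 0.0693) or WT-WT replicate 2 or 4 (0.0669 and 0.0727) either. That of Stk31 was lost without WT-WT replicate 4 (0.0544).

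Nuclear genes of oxidative phosphorylation were called higher in 16 of 88 cases and lower in 1 (4.74% and 6.43% of all tested genes), with a median of 0.12 that was 0.07 with the trend removed. That removal left 9 higher and 1 lower (3.09% and 4.25% of all), and the 8 libraries alone left none. Leaving out KO-WT replicate 1, 2, 3 or 4 gave 10, 7, 9 and 9 called higher, and leaving out WT-WT replicate 1, 2, 3 or 4 gave 17, 8, 4 and 4. Ndufb6, a subunit of complex I, was 9.24, 9.21, 9.16 and 9.09 in WT-WT and 9.47, 9.40, 9.44 and 9.47 in KO-WT, without overlap (0.27 ± 0.05, adjusted p 0.00663; 0.25 with the trend removed). Of 82 cytosolic ribosomal protein genes 9 were called higher and 1 lower, or 12.2% in all, close to the 11.2% of all tested genes, and 2 and 1 with the trend removed. Leaving out WT-WT replicate 1, 2, 3 or 4 gave 14, 4, 1 and 0 called higher, and KO-WT replicate 1, 2, 3 or 4 gave 1, 1, 5 and 5. Equal trimmed means of the libraries gave 19 higher. Rpl39l, the testis-enriched copy, fell by 0.70 ± 0.15 (adjusted p 0.0109), whereas Rps10 rose by 0.24 ± 0.05 (adjusted p 0.00904) and was not called with the trend removed (0.09, adjusted p 0.175) or without WT-WT replicate 4 (0.0526).

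Cul1, Cul2, Cul4b and Cul5, scaffolds of ubiquitin ligases, fell in KO-WT. Of 24 genes of the cullin and anaphase-promoting complexes 6 were called lower and 1 higher (6.43% and 4.74% of all tested genes), and 6 lower and none higher by limma with the trend removed (4.25% and 3.09%). The list's median was -0.06 before and 0.01 after that removal. Without WT-WT replicate 3 only 1 was called lower, and without KO-WT replicate 3 or WT-WT replicate 4 it was 2 and 4. Cul1, the scaffold of SCF ligases, was 9.93, 9.85, 10.08 and 9.93 in WT-WT and 9.62, 9.67, 9.39 and 9.61 in KO-WT. It fell in all 3 same-day pairs (-0.37 ± 0.08, adjusted p 0.00995; -0.29 with the trend removed). Cul5, Cul2 and Cul4b fell by 0.41, 0.35 and 0.34 on the log2 scale, and none of the 3 was called once WT-WT replicate 3 (adjusted p 0.0643, 0.0643 and 0.125) or KO-WT replicate 3 (0.053, 0.0612 and 0.129) was left out. Cul4b was not called without KO-WT replicate 1 or WT-WT replicate 4 as well (0.0508 and 0.0708). After removal of the trend Cul2 and Cul4b differed by -0.20 each (adjusted p 0.0272 and 0.0493). Smg1, the kinase of nonsense-mediated decay, fell by 0.53 ± 0.12 (adjusted p 0.0137; -0.34 with the trend removed). It was not called without WT-WT replicate 3 or KO-WT replicate 3 (0.0601 and 0.0588).

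The comparison with Lin28a-null cells asked whether the effects differed between Lin28a states. The null cells were of clones 1-4 and C1, and the Lin28a-intact cells of clones 1 and E3. Lin28a state and clone therefore cannot be told apart. Without Lin28a 1256 genes (8.38%) were called, 639 higher (4.26%) and 617 lower (4.12%), and 484 genes were called in both Lin28a states. The 2 comparisons share no library, but both came from the same fit of 18 libraries. Day terms and each gene's residual variance were common to both, so their calls are not independent. Of the 15 largest rises with Lin28a intact 12 were called in the same direction without it, as were 9 of the 15 largest falls. The interaction, which tests the difference between the effects, was called for 3 of 14988 genes (0.02%), with 2256 at an unadjusted p under 0.05. Without 1 library in turn between 0 and 4 were called: none without KO-WT replicate 1, 2 or 4 or WT-WT replicate 3 or 4, and 1 without WT-WT replicate 2. The gradient over GC content was close to 0 in the Lin28a-null comparison. The rank correlation of the log2 difference with GC content over genes was 0.513 with Lin28a intact and 0.012 without it. Whether these differ was not tested.

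The 3 genes of the interaction rose with Lin28a intact, and 2 of them, Ubald2 and Arf5, fell without it. Ubald2 was 9.72, 9.75, 9.64 and 9.55 in WT-WT and 9.95, 9.90, 9.90 and 9.997 in KO-WT. In Lin28a-null cells it was 9.81 to 9.91 with Trim71 and 9.53 to 9.71 without it. The groups did not overlap in either state and the direction was opposite (0.27 against -0.25, interaction adjusted p 0.0298). Arf5, a small GTPase of vesicle traffic, showed 0.25 against -0.25 (interaction adjusted p 0.0298), with 8.62 to 8.76 in WT-WT and no KO-WT library below 8.82. Its call with Lin28a intact was lost without KO-WT replicate 2 or WT-WT replicate 4 (0.0521 and 0.0648). Gm44364, a gene model of 141 bases annotated as a microRNA, showed 0.70 against -0.13 (interaction adjusted p 0.0298). Without Lin28a its groups overlapped and it was not called (adjusted p 0.388). With the trend removed no gene was called in the interaction by limma, and Ubald2 and Arf5 were not called with Lin28a intact (0.15 and 0.11, adjusted p 0.122 and 0.266). Cenpf differed by -0.82 with Lin28a and 0.08 without it, and this difference did not pass (interaction adjusted p 0.182).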

How the data were processed

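RNA from the sorted cells was made into TruSeq v2 libraries and sequenced on a HiSeq1500, per the labels' protocols. CASAVA 1.8, STAR and DESeq2 are named in the submitters' processing notes. Their roles, the genome build and the annotation are not given in the sources used here. The deposited table holds 1 score per gene and library, read here as log2 normalised expression: the authors' unit is not stated, values run from -0.71 to 16.3, and 2 to the power of the value sums to between 7297919 and 7677445 per library, which is not a read depth. The largest day term fitted was 8.18e-09, against 1.63 with days shuffled within genotypes, so a day effect had been taken out before deposit.

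Genes that reached 10 normalised units in 4 or more libraries (14988 of 21685) were fitted with limma 3.58.1 (R 4.3.3, mean-variance trend) on 18 libraries, with genotype and day as terms and 10 residual degrees of freedom. P-values were Benjamini-Hochberg adjusted over all tested genes and called at 0.05. The day given in the labels is the pairing of the libraries, and because the day effect was already removed, whether same-day libraries deviate together could not be checked. In 5 simulations with 200 of 14988 genes changed by 1 log2 unit, the KO-WT comparison recovered 99% with the day term (5.71% of calls false) and 99.5% without it (35.1% false). The simulated errors were independent between genes and between libraries, and held no GC trend. Called differences in the data were mostly smaller (median absolute log2 difference 0.31). These rates therefore need not apply to the reported calls.

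For the trend-removed values, each library's deviation from the gene means was fitted with natural splines (5 degrees of freedom each) of transcript GC content and log2 length, from GENCODE M21, and subtracted. Of the symbols, 21001 matched directly and 100 by an older symbol, and 14805 tested genes had a GC value. Figures and tables used Python 3.11.15, numpy 2.4.6, pandas 2.3.3, scipy 1.17.1 and matplotlib 3.10.9.

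The genes named are Trim71, Lin28a, the neighbours of Trim71, the 15 largest differences in each direction among called genes without overlap and averaging 50 or more normalised units (log2 mean), called genes of 2-fold or more, called genes of the interaction, and up to 6 called members of each gene list with its defining genes. Of these, 1 gene is not reported here. The members and lists were chosen with earlier results of these data known. Alternatives covered the day term, subsets of libraries, days and clones, each library left out, filters, scalings, a pseudocount, the variance trend and the GC trend, and 3 of them were added after seeing the data.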

Additional observations from a re-analysis of the deposited data

Results flagged for a closer look

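In 15 of 294 groups of 4 libraries tested, 1 library stood apart from the other 3, and chance gives about 1 in 20. Log2 values high in 1 library were 8.41 for Ccr4 and 9.73 for Mtr in KO-WT replicate 4, 11.52 for Hspb1 in KO-WT replicate 3, 6.87 for Acta2 in WT-WT replicate 4 and 11.53 for Mat2a in WT-WT replicate 2. Log2 values low in 1 library were 8.41 for Upf2, 6.88 for Hormad1, 8.58 for Cul5 and 9.23 for Cul2 in KO-WT replicate 3, and 9.18 for Zfp36l1 in KO-WT replicate 1. In the WT-WT group they were 8.30 for Tdrd12 and 7.27 for Zic5 in replicate 3, 6.94 for Id1 in replicate 4, and 5.83 for Mras and 3.31 for Rsad2 in replicate 1. The limma tests of the interaction found the effect of Trim71 loss to differ between Lin28a states for 3 genes. The differences were 0.83 for Gm44364, 0.52 for Ubald2 and 0.50 for Arf5 on the log2 scale, each with an adjusted p of 0.0298. The Lin28a states also differed in clone, and the interaction cannot tell these apart.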

How the results depend on the processing

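Depth is unknown, so the precision of low values cannot be stated. The count of 1674 genes called with Lin28a intact was 4219 with no replicate block (no day term), a fit that ignores the day pairing and whose residual spread is understated because day had been taken out of the values. It was 30 in the KO-WT and WT-WT libraries alone, 474 on days 3 to 5, 10 in clones E3 and C1, 344 in clones 1 and 1-4, 1087 with the GC and length trend removed, 384 with it removed on days 3 to 5 and 154 with it removed in the 8 libraries alone (the last 2 added after seeing the data). These subsets hold fewer libraries. Without 1 library in turn it ran from 528 to 1450. The 3 genes of the interaction became 673 without the block, 1 in clones E3 and C1, and 0 in clones 1 and 1-4, on days 3 to 5 with and without the trend, with the trend removed, with the library mean removed too, and without the variance trend in limma. They ran from 0 to 4 without 1 library in turn, and 2256 genes had an unadjusted p under 0.05 in the reported fit. The difference in GC trend (0.394) ran from 0.342 to 0.427 without 1 library, was 0.492 in 3 same-day pairs (exact p 0.25, the smallest possible), and for transcript length in place of GC was -0.188 (exact permutation p 0.229). The WT-WT reference limits these p-values as well. The median of let-7 site genes became 0.02 with the trend removed. The count of called neighbours became 3 without the block and 0 in the 8 libraries alone with and without the trend, and 0 in clones E3 and C1. The cause of these changes was not tested.

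Of the 146 called genes named here, none changed sign in 3349 alternative values, and 1129 of those values lost the call. Most calls were lost without WT-WT replicate 4 (75), KO-WT replicate 3 (70) or WT-WT replicate 3 (62), and 58 genes kept theirs in all 8 such fits. Among uncalled genes Nanog changed sign to 0.0667 in clones E3 and C1, 0.0149 with the trend removed, 0.0088 with it removed on days 3 to 5 or in the 8 libraries alone, and 0.0327 with the library mean removed too, and ran from -0.0824 to 0.0221 without 1 library. Hmga2 became -0.0905 in clones E3 and C1 and ran from -0.0239 to 0.137 without 1 library, Gata6 became -0.0883 in those clones, and Esrrb -0.0027 with the trend removed.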

Other observations

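Among imprinted genes 4 of 27 were called lower and 1 higher, beside 6.43% and 4.74% of all tested genes. Meg3 and Rian, noncoding RNAs of the same imprinted domain, were both lower. Meg3 was 6.10, 5.90, 5.84 and 5.68 in WT-WT and 4.94, 5.08, 5.42 and 5.12 in KO-WT, without overlap (-0.74 ± 0.12, limma adjusted p 0.00266; -0.62 with the GC and length trend removed). Rian was 6.30, 6.07, 6.08 and 5.91 against 5.35, 5.29, 5.45 and 5.32 (-0.74 ± 0.11, adjusted p 0.000811), but was not called with the trend removed (-0.44, adjusted p 0.0637). Nnat rose by 0.43 (adjusted p 0.00597). H19 fell by 0.54 (adjusted p 0.0349), a call lost without WT-WT replicate 2 or 4 or KO-WT replicate 2, 3 or 4 (0.0692 to 0.142).

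Of 11 tested histone genes 2 were called higher and none lower by limma, against the same shares. H1f0, a linker histone expressed independently of replication, was 8.93, 8.93, 8.98 and 8.87 in WT-WT and 9.47, 9.41, 9.45 and 9.52 in KO-WT. The groups were tight and apart (0.53 ± 0.05, adjusted p 2.39e-05; 0.45 in Lin28a-null cells). Of 14 primitive endoderm genes all 14 had positive differences, with a median of 0.21, but only Lama1 was called (0.40 ± 0.10, adjusted p 0.0223), a call lost without WT-WT replicate 4 or KO-WT replicate 4 (0.0834 and 0.0699). The list's median was -0.08, -0.04 and 0.61 in the pairs of days 3, 4 and 5, so it was high in 1 pair. That pair was of clone 1, and those of days 3 and 4 were of clone E3. In clones 1 and 1-4 alone, with 1 KO-WT library, the median was 0.66, and in clones E3 and C1 alone -0.03. The part of clone in this was not tested. Of 18 smooth muscle and SRF target genes 3 were called lower and 1 higher, beside 6.43% and 4.74% of all tested genes. Acta2, smooth muscle actin, fell by 0.57 (adjusted p 0.0249), and was not called without WT-WT replicate 4 or KO-WT replicate 2 or 4 (0.0941, 0.0651 and 0.0814). Trim54, another TRIM family member, fell by 0.53 (adjusted p 0.00441), and Rsad2, an interferon-induced gene, rose by 0.62 (adjusted p 0.0025). No gene of the trophectoderm list (14 tested) or the mesoderm and endoderm list (10 tested) was called by limma.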
